A study of Mus musculus with 1037 samples.

Results

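The 9 genes described here encode secreted or shed signals that draw phagocytes and other leukocytes or keep them alive: *Cxcl14*, *Cxcl16*, *Cx3cl1*, *Ccl2*, *Cxcl1*, *Csf1*, *Il34*, *Il1a* and *Tslp*. They were chosen by name, and each matched 1 row by its Ensembl identifier among the 55335 genes of the count table. Their mRNA was measured by Smart-seq2, a method that reads whole transcripts from single sorted cells in wells, in hair follicle epithelium of wild-type mouse skin. The study examined how stem cells of the follicle clear dying neighbours while the follicle shrinks in catagen.

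Counts were at hand for 1036 cells, and 463 cells in labelled groups had at least 2000 detected genes. AnaVI, full anagen, was represented by a lower outer root sheath sort (LOS, 39 cells) and by the sorts titled MOS (38 cells) and UOS (24.2% of the 463 cells), both labelled upper-middle outer root sheath. CatVI, in late catagen, came from upper outer root sheath cells titled P17f, with day 17 in the title: plates 1 (19 cells) and 2 (9 cells), labelled Phago alive, plate 5 (15 cells), labelled Phago apop, and plate 6 (14 cells), labelled NonPhago apop. The NonPhago alive plates 3 and 4 had 0 passing cells. CatVII, the end of catagen, came from upper outer root sheath cells titled OSalive (26.998% of the 463 cells) and OSapop (92 cells). Sex is not stated, and for AnaVI and CatVII no age stands in the labels. Cells of 3 to 6 mice were pooled before sorting, so each sort or plate is 1 sample of unnamed animals. Well names recur in the OSalive and in the OSapop titles under different S numbers, and the labels name no plate for these sorts. No test between groups was possible, and stage, sort, plate and library batch cannot be told apart. The methods of the study describe gates that remove cells bearing CD45, CD31, CD117, CD140a or Sca1 and keep CD34+ ITGA6+ cells.

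All groups but 1 plate carried follicle markers at over 1500 CPM (counts of a gene per 1000000 gene counts of the group). The summed level of 11 epithelial markers was between 1552 CPM in LOS and 6948 CPM on plate 5, against 1275 CPM on plate 2. Markers of other cells were not absent. In LOS the 7 fibroblast genes summed to 1521 CPM, the 7 melanocyte genes to 184.02 CPM, the 5 endothelial genes to 76.8 CPM and the 18 immune genes to 52.3 CPM. The fibroblast genes stood at 356 CPM in UOS, 189.01 CPM in OSalive and 186.6 CPM in OSapop, and at 4.23 to 46.8 CPM in MOS and on the plates. Melanocyte genes were highest on plate 2, at 209.3 CPM. Cells with over 500 CPM of these 4 marker lists together numbered 38 in all, 11 of them in LOS, 7 in UOS, 7 in OSalive and 10 in OSapop. Below they are called marker-bearing cells, and values that rest on them are given with and without them. Depth was uneven: groups held between 1840012 counts (plate 6) and 287377663 counts (OSalive), and 1 LOS cell held 26.9% of all LOS counts.

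Chemokines and growth factors such as these are known as find-me and recruitment signals. CXCL16 and CX3CL1 are made as membrane proteins and can be cut free by the proteases ADAM10 and ADAM17. CXCL14 is a chemokine of epithelia, CCL2 recruits monocytes and CXCL1 neutrophils. CSF1 and IL-34 share the receptor CSF1R, which macrophages and Langerhans cells need, and in skin IL-34 comes from keratinocytes. IL-1α is an alarmin released by damaged epithelium, and TSLP acts on dendritic cells and type 2 lymphocytes.

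By the annotation of GRCm39, *Cxcl14* lies on chromosome 13 at 56436352 to 56444603 and *Cxcl16* on chromosome 11 at 70344517 to 70352620, both on the minus strand. *Cx3cl1* (95498637 to 95509055, plus strand) and *Il34* (111423928 to 111532584, minus strand) lie on chromosome 8, and *Csf1* on chromosome 3 at 107648364 to 107667806 on the minus strand. *Cxcl1* lies on chromosome 5 (91039094 to 91040974, plus strand), *Ccl2* on chromosome 11 (81926397 to 81928279, plus strand), *Il1a* on chromosome 2 (129140291 to 129152098, minus strand) and *Tslp* on chromosome 18 (32948436 to 32952850, plus strand). Of the first 5, each but *Cxcl14* shares exonic bases with a gene on the other strand, between 2.62% (*Il34* with *Vac14*) and 43.2% (*Cxcl16* with *Med11*) for the largest overlap of each, and the library kit does not mark strand.

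The members fell into 3 tiers. *Cxcl14* was found in 430 of the 463 cells (104971 counts) and in every group. *Cxcl16* was found in 42.3% of cells (8500 counts), *Csf1* in 83 cells (2486 counts), *Cx3cl1* in 38 cells (672 counts) and *Il34* in 36 cells (969 counts). The remaining 4 were close to absent: *Cxcl1* had 42 counts in 1 cell, *Il1a* 5 counts in 3 cells, *Tslp* 3 counts in 1 cell and *Ccl2* 1 count in 1 cell. Per kilobase of the canonical transcript, the median level over the 9 groups was 56.2 CPM per kb for *Cxcl14*, 2.19 CPM per kb for *Cxcl16*, 0.635 CPM per kb for *Csf1*, 0.333 CPM per kb for *Il34* and 0.103 CPM per kb for *Cx3cl1*. On the same scale *Cxcl14* ranked 55th from the top among 23597 detected genes in OSalive and 80th among 24652 in UOS.

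**Figure D1:**
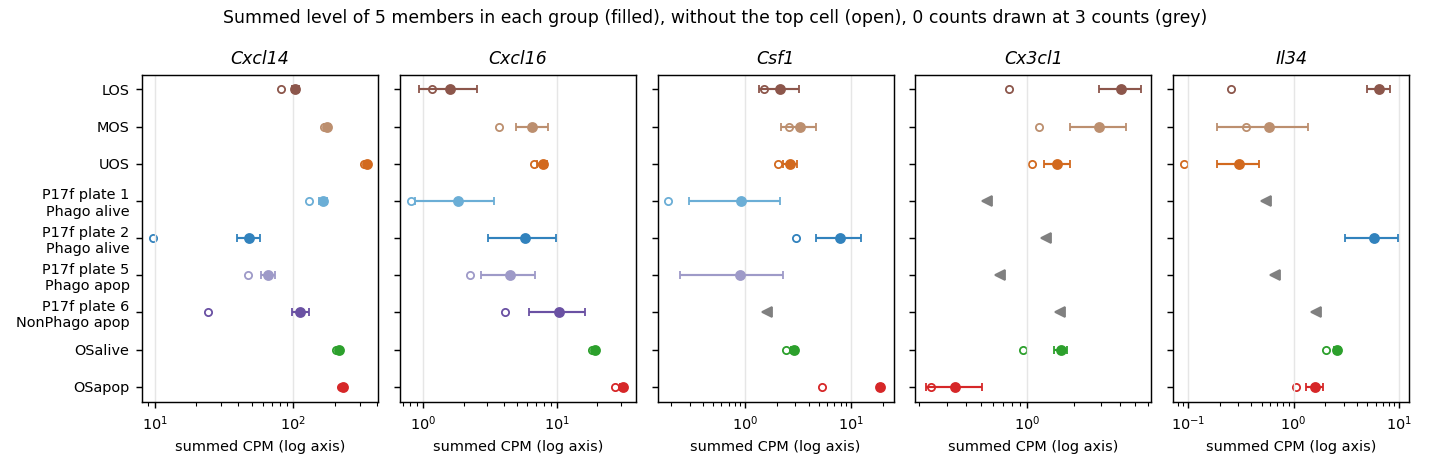
Summed level (CPM, log axis, 1 panel a gene with its own range) of the 5 detected members in the 9 groups with exact 95% Poisson intervals (filled points), the level without the cell with the most counts (open points), and groups with 0 counts drawn at the level of 3 counts (grey triangles). *Cxcl14* was highest in UOS and *Cxcl16* in OSapop, while the open points of *Csf1* in OSapop and of *Il34* and *Cx3cl1* in LOS lie far to the left of the filled ones.

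*Cxcl14* was the member with the highest level in every group. Its summed level was 103.2 CPM in LOS (95% Poisson interval 97.2 to 109.5), 174.7 CPM in MOS (165.99 to 183.8) and 337 CPM in UOS (333 to 341). It was 164.1 CPM on plate 1 (153.6 to 175.2), 47.7 CPM on plate 2 (39.1 to 57.6), 65.6 CPM on plate 5 (58.3 to 73.6) and 112.5 CPM on plate 6 (97.7 to 128.9). In CatVII it was 212.5 CPM in OSalive (210.8 to 214.2) and 229.5 CPM in OSapop (226.01 to 232.97). UOS was highest, both CatVII sorts came next, and only MOS and plate 1, and plate 6 and LOS, were neighbours in this order whose intervals overlapped. All such intervals cover counting error only, since reads of amplified cDNA without molecular identifiers are not independent molecules.

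The order also held for single cells in part. Each UOS cell had a *Cxcl14* count, against 96.8% of OSalive cells, 87 of 92 in OSapop, 36 of 38 in MOS and 31 of 39 in LOS. The median over cells was 326 CPM in UOS (quartiles 183.3 and 503), 202.4 CPM in MOS (120.7 and 268.9), 62.1 CPM in LOS (9.48 and 172.4), 148.7 CPM in OSalive (59.9 and 282.6) and 205.5 CPM in OSapop (70.4 and 353). The quartile ranges of UOS and both CatVII sorts overlapped. Counts were spread widely in the large sorts: the cell with the most held 5.48% of the UOS counts, 6.81% of the OSalive counts and 7.23% of the OSapop counts. On plate 2 a single cell held 86.1% and on plate 6 81.6%, and without it the levels were 9.71 CPM and 24.1 CPM. The marker-bearing cells held 30.2% of the *Cxcl14* counts of OSapop, and without them the OSapop level was 190.1 CPM.

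*Cxcl16*, the transmembrane chemokine and ligand of CXCR6, was the member whose level was higher in both CatVII sorts than in any AnaVI sort. It stood at 1.59 CPM in LOS (0.924 to 2.54), 6.55 CPM in MOS (4.95 to 8.51) and 7.80 CPM in UOS (7.15 to 8.49). The plates gave 1.82 CPM (plate 1), 5.74 CPM (plate 2), 4.45 CPM (plate 5) and 10.3 CPM (plate 6), from 10 to 20 counts each. On each plate 1 cell held between 55% and 100% of the counts. OSalive had 19.4 CPM (18.9 to 19.9) and OSapop 31.03 CPM (29.8 to 32.3). The intervals cover counting error only and are narrow at the depth of the CatVII sorts. From plate 6 down to LOS each interval overlapped the next lower in the order.

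A count of *Cxcl16* was found in 71 OSalive cells (56.8%, Clopper-Pearson interval 47.6% to 65.6%), 44 of 92 OSapop cells (47.8%, 37.3% to 58.5%) and 48 UOS cells (42.9%, 33.6% to 52.6%). OSalive cells were deeper, with a median of 2182588 counts against 471277 in UOS. With every cell thinned to 50000 counts and shallower cells left out, the share was 39.5% of OSalive cells, 36.5% of OSapop cells and 21.6% of UOS cells. Among cells with a count, the median was 19.7 CPM in OSalive, 47.6 CPM in OSapop and 12.3 CPM in UOS. No single cell decided these sorts, the cell with the most holding 6.85%, 15.5% and 15.2% of their *Cxcl16* counts. Reads in the exons that *Cxcl16* shares with *Med11* (43.2% of its exonic bases) and *Zmynd15* (41.6%) cannot be told apart. *Med11* stood at 1.98 CPM in UOS and 2.09 CPM in OSalive, and *Zmynd15* at 1.02 CPM and 2.23 CPM. In OSapop they were at 4.61 and 3.72 CPM, and on plate 6 *Zmynd15* was at 6.52 CPM beside *Cxcl16* at 10.3 CPM.

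**Figure D2:**
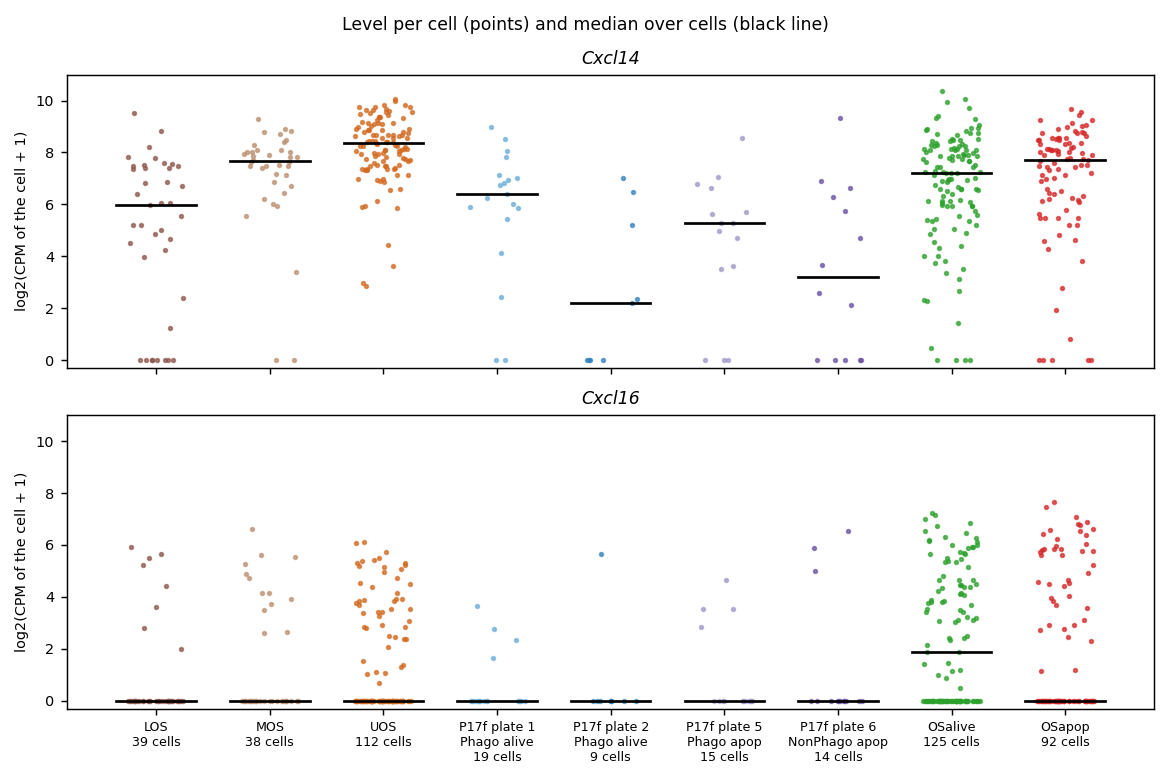
Level of *Cxcl14* (top) and *Cxcl16* (bottom) in each passing cell, as log2(CPM + 1), by group, with the median over cells as a black line. Nearly all UOS cells lie in a high *Cxcl14* band, while *Cxcl16* is at 0 in the median cell of every group but OSalive.

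*Cx3cl1*, the membrane-bound ligand of CX3CR1, was sparse. Its level was 4.01 CPM in LOS (2.90 to 5.40), 2.93 CPM in MOS (1.89 to 4.32), 1.57 CPM in UOS (1.28 to 1.89), 1.64 CPM in OSalive (1.498 to 1.798) and 0.342 CPM in OSapop (0.221 to 0.505). All 4 plates had 0 counts, which allows up to 0.547 CPM on plate 1, 1.32 CPM on plate 2, 0.667 CPM on plate 5 and 1.63 CPM on plate 6. At this depth a level like that of UOS could not have been told from 0 on plate 6. Cells with a count numbered 3 of 39 in LOS, 5 of 38 in MOS, 11 in UOS (9.82%), 12 in OSalive (9.60%) and 7 of 92 in OSapop. The LOS value came from 1 cell with 86.05% of the counts, the deepest of the sort with 11424 detected genes. That cell had 353 CPM of the epithelial list (8 of 11 genes), with *Krt5* at 230.7 CPM and *Krt14* at 0, 484 CPM of the fibroblast list (6 of 7 genes), of which 373 CPM was the pericyte and fibroblast gene *Pdgfrb* and 2.78 CPM *Col1a1*, and 279.7 CPM of the endothelial list (5 of 5 genes). Without it the LOS level was 0.765 CPM. In OSalive the cell with the most held 43.6%. That cell had 1854 CPM of *Krt5* and 340 CPM of *Cd34*, 0 CPM of the immune, fibroblast and endothelial lists and 55.9 CPM of the melanocyte list, from 1 gene.

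*Csf1*, the main growth factor of macrophages, stood between 2.15 and 3.28 CPM in 4 of the 5 large sorts. It was 2.15 CPM in LOS (1.36 to 3.22), 3.28 CPM in MOS (2.18 to 4.74), 2.66 CPM in UOS (2.29 to 3.08) and 2.92 CPM in OSalive (2.72 to 3.12), with overlapping intervals between neighbours. OSapop stood apart at 18.998 CPM (18.01 to 20.02). Plates 1, 2 and 5 had 0.912, 7.95 and 0.890 CPM from 5, 18 and 4 counts, and plate 6 had 0 counts. The OSapop value rested on 1 cell that held 1010 of the 1388 counts (72.8%) at 508 CPM, and without it the level was 5.32 CPM. This cell carried 1972 CPM of *Krt5*, 843 CPM of *Krt14* and 141.3 CPM of *Sox9*, 176.5 CPM of *Cxcl16*, and 0 CPM of *Cd34* and of the fibroblast, melanocyte and endothelial lists. Its immune list summed to 29.2 CPM, all of it *Cd74*. Cells with a count made up 19.6% of OSapop, 13.6% of OSalive, 20.5% of UOS, 28.9% of MOS and 20.5% of LOS. In LOS 73.9% of the *Csf1* counts lay in marker-bearing cells, and in UOS 29.1%. Without them LOS had 0.896 CPM, UOS 2.12 CPM, MOS 3.29 CPM, OSalive 2.63 CPM and OSapop 21.9 CPM. On plate 2 the cell with 12 of the 18 counts had 0 CPM of the 11 epithelial markers and 9.73 CPM of *Ptprc*, the gene of CD45.

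*Il34*, the keratinocyte ligand of CSF1R, was found in a larger share of cells in the CatVII sorts than in UOS, with overlapping intervals. It was 6.44 CPM in LOS (5.01 to 8.15), 0.585 CPM in MOS (0.190 to 1.37), 0.307 CPM in UOS (0.190 to 0.470), 2.59 CPM in OSalive (2.41 to 2.78) and 1.60 CPM in OSapop (1.32 to 1.92). Plate 2 had 5.74 CPM from 13 counts in 1 cell, and the other plates had 0 counts. The LOS level was again the deep *Pdgfrb*-bearing cell, which held 97.1% of the counts, and without it LOS had 0.255 CPM. A count was found in 16 OSalive cells (12.8%, 7.50% to 19.95%), 10 of 92 OSapop cells (10.9%, 5.34% to 19.1%) and 3 UOS cells (2.68%, 0.556% to 7.63%). It was also found in 3 of 38 MOS cells (1.66% to 21.4%) and 3 of 39 LOS cells (1.62% to 20.9%). All these intervals overlapped. The cell with the most held 23.3% of the OSalive counts and 35.9% of the OSapop counts. Thinned to 50000 counts, the shares were 4.84% in OSalive, 5.88% in OSapop and 2.70% in UOS. All *Il34* counts of UOS and of LOS lay in marker-bearing cells, against 7.93% in OSalive and 4.27% in OSapop. Without these cells *Il34* had 685 counts in OSalive and 0 in UOS.

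**Figure D3:**
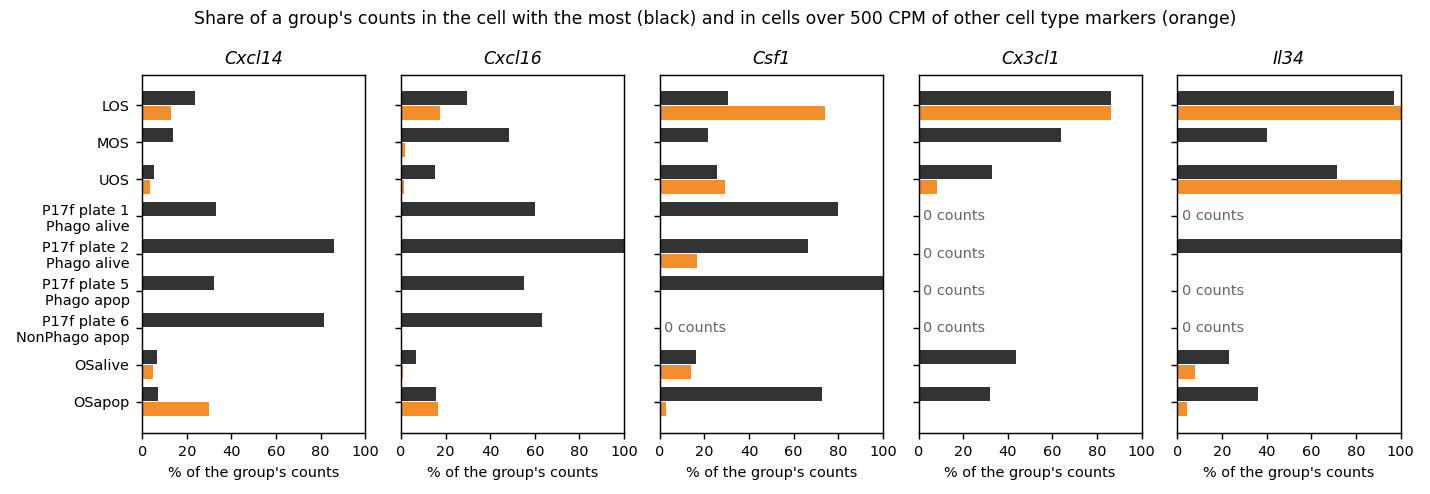
Percent of a group's counts of each of the 5 detected members that was held by the cell with the most (black bars) and by the marker-bearing cells (orange bars), by group. The orange bars of *Il34* reach 100% in LOS and UOS and stay under 10% in OSalive and OSapop, and the black bars of *Cxcl14* and *Cxcl16* are short in UOS and both CatVII sorts.

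The 4 remaining members, inducible in many cells, had few counts. *Cxcl1* was listed with 42 counts in OSalive, all in the cell with the most detected genes of that sort (9912). That cell had 4064 CPM of *Col1a1* and 53.1 CPM of *Pdgfra* beside 1500 CPM of *Krt5*, so both fibroblast and epithelial transcripts were present in the well. *Ccl2* had its only count in an OSapop cell with 4541 CPM of *Col1a1* and 220 CPM of *Lyz2*, a myeloid gene. *Il1a* had 5 counts in 3 OSapop cells (0.0684 CPM) and *Tslp* 3 counts in 1 UOS cell (0.0439 CPM). The fullest cell of each of these 2 had 4035 CPM and 5975 CPM of the epithelial markers and 0 CPM of the fibroblast and immune lists. *Ccl2*, *Il1a* and *Tslp* had 0 counts in OSalive. With 3 cells standing for 0, that allows a count in 2.40% of cells, and the Clopper-Pearson upper end is 2.91%. These limit cells with a count and not cells that express the gene. The transcripts of *Ccl2* (813 bases) and *Cxcl1* (959 bases) are the shortest of the 9, and over all genes tested the median log2 ratio of OSalive to UOS was -0.87 under 1 kb of length against -0.21 at 4 kb or more. The part of length in these values was not tested. The dissociation and immediate early genes summed to between 486 CPM (plate 5) and 1455 CPM (OSalive), with none of the 13 at 0 in any group.

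Between OSalive of CatVII and UOS of AnaVI, *Il34* and *Cxcl16* were higher and *Cxcl14* was lower by less than 2-fold. Against MOS, which shares the label of UOS, *Cxcl14* was higher in OSalive in the sums (212.5 against 174.7 CPM). Its median over cells was lower there (148.7 CPM in OSalive against 202.4 CPM in MOS). *Cxcl16* was 2.48-fold higher in OSalive than in UOS (log2 ratio 1.31, 95% counting interval 1.18 to 1.44), at the 91.3rd percentile of all genes tested. *Il34* was 8.43-fold higher (log2 3.07, 2.45 to 3.78, from 744 and 21 counts), at the 97.3rd percentile. *Cxcl14* was 1.59-fold lower (log2 -0.67, -0.69 to -0.64). *Csf1* (log2 0.13, -0.10 to 0.37) and *Cx3cl1* (log2 0.07, -0.24 to 0.39) had intervals that held 0. So 2 of the 5 members with at least 100 counts passed 2-fold, both higher. Over all 14159 genes with that many counts, 38.2% passed 2-fold, 11.5% higher and 26.6% lower, with a median log2 ratio of -0.32. Scaled by median-of-ratios factors the median of all genes was 0.11, *Cxcl16* had a log2 ratio of 1.75 and *Cxcl14* -0.23. *Cxcl14* was below the median gene under both scalings. *Cxcl16* stayed between 1.2045 and 1.75, and *Il34* between 1.84 and 5.66, under the 9 alternatives tried, the highest being that without the marker-bearing cells, where UOS had 0 counts and was set to 3.

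**Figure D4:**
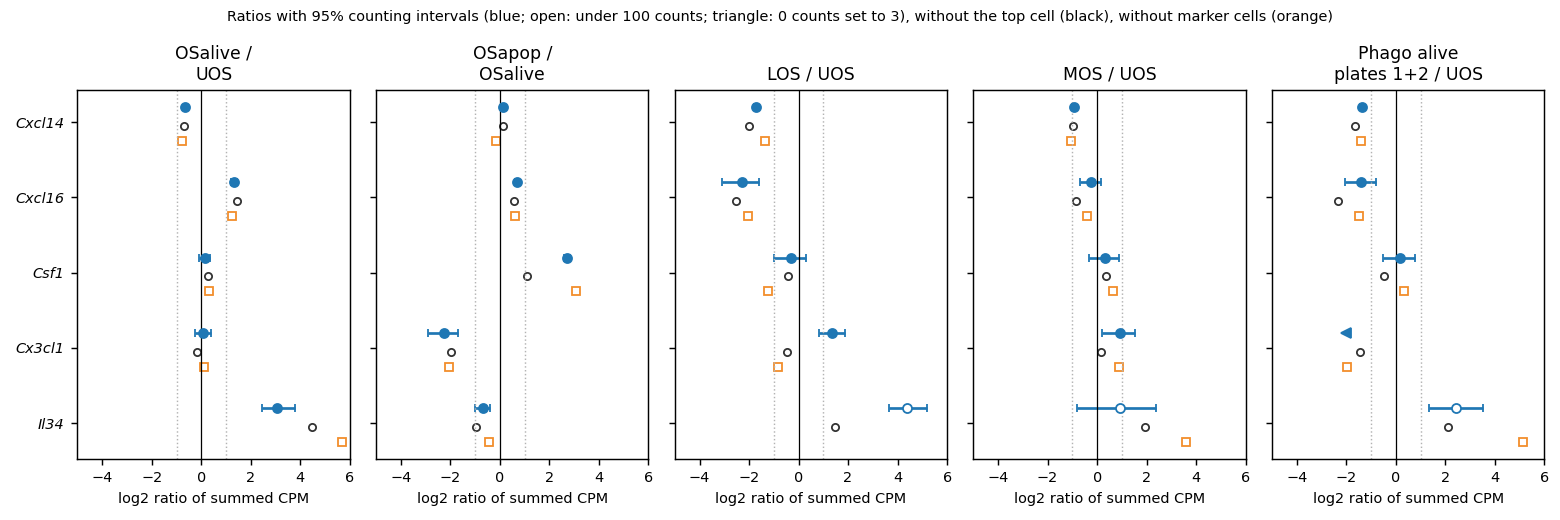
Log2 ratio of summed CPM of the 5 detected members in 5 comparisons, with exact 95% counting intervals (blue), without the cell with the most counts in each group (black circles) and without the marker-bearing cells (orange squares). Dotted lines mark 2-fold, open blue points have under 100 counts, and a group with 0 counts was set to 3. *Cxcl16* stays to the right of 2-fold in the first panel, and *Cx3cl1* changes side in the third.

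Within CatVII, the apop-labelled sort had more *Csf1* and less *Cx3cl1* than the alive sort. *Csf1* was 6.52-fold higher in OSapop (log2 2.70, 2.58 to 2.83) and *Cx3cl1* 4.80-fold lower (log2 -2.26, -2.91 to -1.68). Without the cell with the most counts in each sort, the log2 ratio of *Csf1* was 1.11 and that of *Cx3cl1* -1.97. As a mean over cells of each cell's CPM, *Cx3cl1* was at log2 -1.10. *Cxcl16* was 1.60-fold higher (log2 0.68, 0.61 to 0.75), *Il34* 1.62-fold lower (log2 -0.69, -0.99 to -0.41) and *Cxcl14* 1.08-fold higher (log2 0.11, 0.09 to 0.14). The log2 ratio of *Cxcl16* was 0.35 as a mean over cells and 0.33 on cells thinned to 50000 counts. Of the 5 members tested 1 passed 2-fold as higher and 1 as lower, while of 13886 genes 21.9% passed, 10.6% higher and 11.3% lower. The sign of the *Cxcl14* ratio turned without the marker-bearing cells (log2 -0.16) and with median-of-ratios factors (log2 -0.08).

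Down the AnaVI follicle, *Cxcl14* and *Cxcl16* were lower in LOS than in UOS. *Cxcl14* was 3.27-fold lower (log2 -1.71, -1.79 to -1.62) and *Cxcl16* 4.92-fold lower (log2 -2.30, -3.09 to -1.60, from 17 and 533 counts). With each LOS cell given equal weight, the *Cxcl16* log2 ratio was -0.41. Without the marker-bearing cells, which held 37.5% of the LOS counts, the ratios were -1.34 for *Cxcl14* and -2.04 for *Cxcl16*. Of the 11 epithelial markers, 9 were also lower by 2-fold in LOS, with a median log2 ratio of -1.59. The part of cell mixture in these ratios was not tested. *Cx3cl1* was 2.56-fold higher in the sums (log2 1.36, 0.81 to 1.88) but at log2 -0.48 without the top cells and -0.84 without the marker-bearing cells, and its higher value was that of 1 cell. *Csf1* had a log2 ratio of -0.31 (-1.005 to 0.32), -1.24 without the marker-bearing cells, 0.47 as a mean over cells and 1.38 on cells thinned to 50000 counts, so that its direction was not settled. Of 4 members tested 1 was higher and 2 lower by 2-fold. The share over 11473 genes was 28.4%, with 14.1% higher and 14.3% lower.

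MOS and UOS share a label, and no member passed 2-fold between them in the sums. *Cxcl14* was 1.93-fold lower in MOS (log2 -0.95, -1.02 to -0.87), *Cx3cl1* 1.87-fold higher (log2 0.90, 0.21 to 1.54), and the intervals of *Cxcl16* and *Csf1* held 0. On thinned cells *Csf1* (log2 2.0009) and *Cx3cl1* (log2 1.21) passed, with median-of-ratios factors *Cx3cl1* (log2 1.098), and without the marker-bearing cells *Cxcl14* (log2 -1.06). That was 0 of 4 members, with 29.7% of 11114 genes past 2-fold, 6.56% higher and 23.2% lower.

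On the Phago alive plates of CatVI, *Cxcl14* and *Cxcl16* were lower than in UOS. The Phago alive plates 1 and 2 together were 2.59-fold lower for *Cxcl14* (log2 -1.37, -1.47 to -1.28) and 2.63-fold lower for *Cxcl16* (log2 -1.39, -2.06 to -0.79, from 23 and 533 counts). *Cx3cl1* had 0 counts over both plates. Set to 3 counts, it was 4.04-fold lower (log2 -2.02), and the upper end of its counting interval was log2 -1.69. *Csf1* had a log2 ratio of 0.16 (-0.54 to 0.79). So 3 of 4 members passed 2-fold in the sums, all lower. Of 11281 genes 43.2% passed, 14.9% higher and 28.3% lower. On cells thinned to 50000 counts *Csf1* passed as higher and *Cx3cl1* did not pass, while 40.4% of 11280 genes passed. Of the 11 epithelial markers, 6 were also lower by 2-fold on these plates and 0 higher, with a median log2 ratio of -1.02. On plate 2, 6 of 9 cells had over 500 CPM of these markers. The part of cell mixture in these ratios was not tested. The 2 plates differed from each other, with *Cxcl14* at 164.1 and 47.7 CPM. *Cxcl16* was at 1.82 CPM on plate 1 and 5.74 CPM on plate 2. On plate 2 all 13 *Cxcl16* counts lay in 1 cell, and the interval (3.06 to 9.82) held the UOS level of 7.80 CPM. *Il7r*, a lymphocyte gene and part of the TSLP receptor, was at 34.4 CPM on plate 2 with 96.2% of its counts in 1 cell, and at 0 on plate 1. Between plate 5 and plates 1 and 2, *Cxcl14* alone had 100 counts. It was 1.98-fold lower on plate 5 (log2 -0.99, -1.18 to -0.80) and so just under the threshold, which 32.8% of 5260 genes passed. The comparisons above share UOS, OSalive or plates 1 and 2 and are not independent of each other.

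The leukocyte receptors of these ligands were found in few cells. *Cx3cr1*, *Ccr2* and *Cxcr2* had at most 39 counts each over all 463 cells. *Csf1r* was at 7.75 CPM in 6 LOS cells and at 2.55 CPM in OSalive, where 1 cell held 98.8% of 733 counts, and at 0.205 CPM or less in MOS, UOS and OSapop. *Cxcr6*, the receptor of CXCL16, was at 0.527 CPM in UOS, 0.560 CPM in OSalive and 0.164 CPM in OSapop, and at 2.45 CPM in 1 cell of plate 5. *Crlf2*, the other chain of the TSLP receptor, had 71 counts in all.

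Receptors that epithelium itself uses were present. *Il1r1*, the signalling receptor of IL-1α, stood at 17.1 CPM in LOS, 31.95 CPM in MOS and 19.5 CPM in UOS, and at 5.0004 CPM in OSalive and 5.90 CPM in OSapop. It was thus lower by 1.97 on the log2 scale in OSalive than in UOS. Its partner *Il1rap* was between 1.78 and 7.51 CPM in all groups. *Il1r2*, the decoy that binds IL-1 without signalling, was at 26.8 CPM in MOS and 2.41 CPM in UOS and had 0 counts on the 4 plates and in OSapop. In MOS a single cell held 51.1% of its counts. *Sdc1* (91.8 to 646 CPM) and *Ptprz1* (0 to 22.7 CPM), alternative receptors of IL-34, were highest on plate 5. Of the 11 receptors, 5 could be tested between OSalive and UOS, and 1 was higher (*Csf1r*) and 1 lower (*Il1r1*) by 2-fold. Over all 14159 genes tested, 11.5% were higher and 26.6% lower. Nearly all *Csf1r* counts of OSalive lay in 1 cell.

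The atypical receptor *Ackr4*, which takes up chemokines of the CCL19, CCL21 and CCL25 group, was, like *Cxcl16*, higher in OSalive and lower in LOS than in UOS. It was at 17.95 CPM in 66.1% of UOS cells, 43.9 CPM in 81.6% of OSalive cells and 37.96 CPM in 66 of 92 OSapop cells, and at 0.222 to 1.46 CPM on the plates. Its log2 ratio was 1.29 for OSalive to UOS and -1.86 for LOS to UOS, and -0.21 for OSapop to OSalive, where *Cxcl16* was higher. *Ackr3*, a scavenger of CXCL12, had 0 counts on the 4 plates and was between 3.04 and 11.7 CPM elsewhere. The sheddases were expressed in every group. *Adam10* was at 23.2 CPM in UOS, 23.9 CPM in OSalive and 27.7 CPM in OSapop, and *Adam17* at 22.6, 17.2 and 18.5 CPM. Neither differed by 2-fold between OSalive and UOS or within CatVII. *Adam10* was higher in LOS (55.9 CPM) than in UOS, by 1.27 on the log2 scale.

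Of 28 other chemokines, 10 had 0 counts in all 463 cells, among them *Cxcl2*, *Cxcl3*, *Cxcl5*, *Ccl3* and *Ccl4*, and 5 had 100 counts or more. *Cxcl12*, a homeostatic chemokine of stroma and epithelium, was at 190 CPM in LOS, 59.9 CPM in MOS, 66.3 CPM in UOS, 17.5 CPM in OSalive and 16.97 CPM in OSapop. It was lower by 1.92 on the log2 scale in OSalive than in UOS, opposite in direction to *Cxcl16*, and 1 cell held 75.3% of the LOS counts. *Ccl25* was at 2.11 CPM in UOS and 3.88 CPM in OSalive. *Cxcl10*, an interferon-induced chemokine, was at 2.35 CPM in OSapop, with 79.7% of the counts in 1 cell. Of 28 other cytokines 8 had 0 counts, and 6 had 100 counts or more. *Mif* was lower in OSalive (5.47 CPM) than in UOS (27.7 CPM), *Lif* was at 3.67 CPM in OSapop with 94.03% in 1 cell, and *Il33* was at 1.32 CPM in 4 UOS cells and had 0 counts in OSalive.

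The less abundant members were found alone in some cells and together in others. Of the OSalive cells, 84 had a count of *Cxcl16*, *Csf1*, *Cx3cl1* or *Il34* (67.2%), and 60 of them had only 1 of the 4. In UOS 56.2% of cells had at least 1 of the 4, in OSapop 59.8%, in MOS 55.3% and in LOS 43.6%. *Cxcl16* was also present in 11 of the 16 OSalive cells with *Il34*, in 12 of the 17 OSalive cells with *Csf1*, in 12 of 18 such OSapop cells and in 12 of 23 such UOS cells. Among all cells it was present in 56.8% of OSalive, 47.8% of OSapop and 42.9% of UOS. Both CSF1R ligands were found together in 7 OSalive, 6 OSapop and 3 UOS cells. In OSapop the median depth was 906660 counts in cells with *Cxcl16* and 342269 counts in those without, while in UOS cells with *Il34* were shallower (240204 against 472152 counts).

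Over the 9 groups the genes closest to *Cxcl14* in log2(CPM + 1) were *Ltbp1*, a binding protein of latent TGF-β (Pearson r = 0.97), *Raly* (0.97) and *Zfp414* (0.97), out of 9439 genes found in at least 75 cells. Closest to *Cxcl16* were *9530082P21Rik* (0.95), *H2-T11-ps* (0.94) and *Lifr* (0.92), and closest to *Csf1* were *Rnf167* (0.92), *Gm6665* (0.90) and *Med11* (0.90). The 2 highest *Csf1* levels, in OSapop and on plate 2, each rested on 1 cell, with 72.8% and 66.7% of the counts. *Gm6665* was at 0.883 CPM or less in every group. *Lifr*, the receptor of LIF, was at 67.9 CPM in UOS, 80.5 CPM in OSalive and 112.6 CPM in OSapop. The 9 points share libraries, depth and pools within a stage, so these values are a description.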

How the data were processed

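Smart-seq2 libraries of single sorted cells were analysed. According to the authors and the labels, reads were aligned with STAR 2.6 to mm39 and quantified with Salmon 1.4.0, and the deposited table holds estimated counts per gene, neither normalized nor filtered. Of the values, 0.471% were not whole, and all were rounded. The 92 spike-ins and 1 cell with conflicting labels were left out. Symbols and positions came from GENCODE on GRCm39, which held 93.3% of the 55335 identifiers.

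Counts of cells with at least 2000 detected genes were added up within each group and expressed as CPM of all its gene counts. Ratios carry exact binomial intervals, levels exact Poisson and shares Clopper-Pearson intervals at 95%, all for counting error only. A group with 0 counts was set to 3 counts. A gene needed 100 counts over both groups, and 2-fold was the threshold. No p-value was computed, since each group is 1 pool. Group totals of 1840012 to 287377663 counts set the precision. One gene, ENSMUSG00000106106.2, took 56.3% to 66.5% of them. Nearest patterns are the 3 highest correlations over 9 groups. List genes were named if they had 100 counts and stood among the 2 highest or 2 lowest of their list, in a comparison, or were receptors or sheddases of a member, while *Med11*, *Zmynd15* and *Vac14* were named for sharing exons, after their values were seen. The members and lists were chosen with earlier results of these data known. The intervals were tested on simulated Poisson counts only, the model they assume, which leaves out the spread between cells and the amplification of the real counts. The limit of 500 CPM for marker-bearing cells and the length classes were chosen after seeing the data. Intervals came from scipy 1.17.1, tables from pandas 2.3.3 under Python 3.11.15.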

Additional observations from a re-analysis of the deposited data

Results flagged for a closer look

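Members were also counted in the 572 cells with under 2000 detected genes, which enter no comparison. *Cxcl14* was found in 77 of these cells, *Cxcl16* in 11 cells with 20 counts and *Csf1* in 4 cells with 5 counts, each above the 3 counts that a count of 0 allows. As CPM of these cells that was 108.5 CPM for *Cxcl14*, 7.54 CPM for *Cxcl16* and 1.88 CPM for *Csf1*. On the NonPhago alive plates 3 and 4, which had 1104 and 27556 counts in all, every member was at 0.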

How the results depend on the processing

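No paired analysis was possible because each group is 1 pool of cells and the results come from no test. The number of members past 2-fold stayed within 1.5 times of the reported one in 45 of 54 recomputations, 6 comparisons under 9 alternatives, 8 of them planned. Of LOS against UOS (3), it was 1 as a mean over cells of the CPM of each cell. In that comparison *Csf1* passed in place of *Cx3cl1* on thinned cells (higher) and without the marker-bearing cells (lower). For the Phago alive plates against UOS (3), the number was also 3 on thinned cells, but with *Csf1* (higher) in place of *Cx3cl1*. Of MOS against UOS (0), it was 1 with median-of-ratios factors (*Cx3cl1*), 2 with cells thinned to 50000 counts (*Cx3cl1*, *Csf1*) and 1 (*Cxcl14*) without the marker-bearing cells. Of plate 5 against plates 1 and 2 (0), it was 1 without the cell with the most counts, 1 with at least 3000 and 1 with at least 1000 detected genes, 1 with a minimum of 20 counts and 1 without the marker-bearing cells. The log2 ratio of *Cx3cl1* turned its sign between LOS and UOS, to -0.995 as a mean over cells, -0.48 without the top cells and -0.84 without the marker-bearing cells. Between the Phago alive plates and UOS it turned to 0.51 on thinned cells, where the plates had 0 counts and the value is set by the 3 counts that stand for 0. Of the other ratios, 68 left their counting interval without a called value turning and the rest stayed within it. Depth limits the plates most, where 3 counts come to 0.547 to 1.63 CPM.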

Other observations

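CatVII cells with a count of *Il34*, *Csf1*, *Cx3cl1* or *Cxcl16* had a lower median of *Cxcl14* than the other cells of their sort. The median *Cxcl14* level was 43.3 CPM in the 16 OSalive cells with *Il34* and 152.7 CPM in the rest, and 22.97 CPM in 10 and 230 CPM in 82 OSapop cells. The same direction held for *Csf1*, with medians of 67.9 and 163.3 CPM in OSalive, 133.1 and 214.3 CPM in OSapop, and 247.1 and 341 CPM in UOS. For *Cx3cl1* the medians were 109.7 and 148.7 CPM in OSalive, 157.9 and 209.4 CPM in OSapop, and 158.1 and 336.2 CPM in UOS. For *Cxcl16* they were 123.5 and 204.6 CPM in OSalive and 186.6 and 210.8 CPM in OSapop, but 338.3 and 298.4 CPM in UOS. In UOS all 3 cells with *Il34* were marker-bearing. Of the 11 epithelial markers, *Krt15*, *Sox9*, *Itgb4* and *Lhx2* had lower medians in the *Il34* cells of both CatVII sorts (*Itgb4* 256.8 and 485.5 CPM in OSalive), and *Krt17*, *Epcam*, *Itga6* and *Cdh1* higher ones. Medians of *Krt17* were 19.6 and 0 CPM in OSalive and 63.7 and 0 CPM in OSapop, where cells with *Csf1* (21.6 CPM) or *Cx3cl1* (28.5 CPM) were also above 0. Cells with *Il34* were deeper in both CatVII sorts (2544981 against 2008965 counts in OSalive), and cells of a pool are not replicates, so no test was made.

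The other find-me signals were all detected. Of these 9 genes none was higher and 4 were lower by 2-fold in OSalive than in UOS, where 26.6% of all genes were lower. *Rps19*, a ribosomal protein gene whose product attracts monocytes as a dimer, was at 143.97 CPM in UOS and 10.4 CPM in OSalive. The dimer itself was not measured. *Anxa1*, a regulator of leukocyte entry, was at 51.2 CPM in UOS, 28.3 CPM in OSalive and 48.9 CPM in OSapop. *Sphk2*, which makes sphingosine 1-phosphate, was at 9.39, 14.7 and 23.3 CPM in the same order.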
